A study of Mus musculus with 17 samples.

Results

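Ly6a, Ly6c1, Ly6c2 and Ly6e of the lymphocyte antigen 6 (Ly6) family, and Thy1, are 5 of the 48709 genes counted in CD8+ T cells of mouse brain and blood. They were taken by gene symbol as surface proteins held in the membrane by a lipid anchor. The rule that picks them uses no measured value, but the list was chosen with earlier results of these data known. The study sequenced RNA of CD8+ T cells in 17 libraries. Wild type (WT) mice gave 5 brain and 5 blood libraries, all female. APP-PS1 mice gave 4 brain libraries (3 male, 1 female) and 3 blood libraries (2 male, 1 female). APP-PS1 is a model of Alzheimer's disease with a pair of transgenes, a chimeric mouse/human APP695swe and a mutant human presenilin, PS1-dE9. The prion protein promoter drives both in neurons of the central nervous system, so the T cells themselves are not the intended site of expression. The design text calls the mice aged and names 7 APP-PS1 and 10 WT animals, without ages, numbers that equal those of the libraries of each strain. The labels do not tie libraries to animals or say whether any brain and blood libraries shared an animal, so p-values measure the spread between these libraries, which may in part be technical. Brain was homogenised and freed of myelin on a density gradient whereas blood was treated to lyse red cells, so tissue and preparation cannot be told apart.

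Ly6 proteins are small, disulphide-rich proteins tied to the outer membrane by a glycosylphosphatidylinositol (GPI) anchor. Ly6C, encoded by Ly6c1 and Ly6c2, is used as a marker of memory and effector CD8+ T cells and of inflammatory monocytes. Ly6a encodes Sca-1, known from blood stem cells, activated T cells and endothelium, and Ly6e encodes a broadly expressed protein that limits entry of some viruses. Both are known as interferon-inducible genes. Thy1 (CD90) is a GPI-anchored protein of the immunoglobulin superfamily that marks T cells, and in mouse also neurons.

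The 4 Ly6 genes lie within 156.9 kb of chromosome 15 on GRCm38 and Thy1 lies on chromosome 9, all annotated as protein coding. In order along chromosome 15, Ly6e occupies 74955051 to 74959905 on the plus strand. Ly6a follows at 74994877 to 74998031, Ly6c1 at 75044018 to 75048830 and Ly6c2 at 75108158 to 75111970, these 3 on the minus strand. Thy1 occupies 44043384 to 44048579 of chromosome 9 on the plus strand.

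How far the counts of Ly6c1 and Ly6c2 can be separated depends on their sequences. Their coding sequences are both 396 bases long and differ at 9 positions, an identity of 97.73%. The first and the last stretch of 120 coding bases are shown 5′ to 3′ from GENCODE M21 transcripts, with the bases that differ in capitals.
Ly6c1, coding bases 1 to 120: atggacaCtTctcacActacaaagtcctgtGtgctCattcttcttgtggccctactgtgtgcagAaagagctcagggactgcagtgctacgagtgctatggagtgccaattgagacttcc
Ly6c2, coding bases 1 to 120: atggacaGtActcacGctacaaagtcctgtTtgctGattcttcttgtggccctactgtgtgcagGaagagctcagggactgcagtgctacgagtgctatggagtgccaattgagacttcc
Ly6c1, coding bases 277 to 396: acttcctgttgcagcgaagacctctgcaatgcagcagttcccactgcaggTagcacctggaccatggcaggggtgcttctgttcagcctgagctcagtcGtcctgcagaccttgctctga
Ly6c2, coding bases 277 to 396: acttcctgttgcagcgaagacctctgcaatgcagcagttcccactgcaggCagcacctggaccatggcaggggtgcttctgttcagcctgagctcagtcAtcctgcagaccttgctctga
Of the 9 differences, 6 fall in the first stretch and 2 in the last, and the longest run without a difference is 188 bases. Over the whole principal transcript, 36.73% of the 50-base words of Ly6c1 and 32.99% of those of Ly6c2 occur in another gene. Those of Ly6c2 lie nearly all in Ly6c1, whereas those of Ly6c1 lie mostly in Ly6c2 and for a smaller part in Ly6a. For Ly6a the share was 10.04%, spread over Ly6c1, Ly6i and other neighbours, and Ly6e and Thy1 had 0 shared words of 2232 and 1686. With 100-base words the shares were 15.3% for Ly6c1 and 15.77% for Ly6c2, and 0 for the other members. How counts were divided between Ly6c1 and Ly6c2 is uncertain, with read length and the treatment of reads with several matches not given in the sources used here, while Ly6e and Thy1 share no such stretch. Ly6a was next in likeness, at 81.98% coding identity to Ly6c1, against 52.58% to Ly6e.

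The libraries were shallow, with 27646 to 214670 counts each, and APP-PS1 blood was the shallowest group at 39055 to 46336. Of the markers that define CD8+ T cells, Cd8a, Cd8b1, Cd3d, Cd3e, Cd3g and Trac had counts in every group and Cd4 had no count. In sum they stood at 6803 to 8346 CPM in WT brain and 5551 to 7484 CPM in WT blood (CPM, counts per 1000000 counts of the library). In APP-PS1 mice the sums were 5824 to 7235 CPM in brain and 4554 to 5742 CPM in blood. These did not overlap, as was so for 9.04% of single tested genes. By edgeR, 5 of the 6 had a log2 fold change above 0 in that comparison, and Cd3d was at -0.15. Cd3g, a subunit of the T cell receptor complex, was called higher in brain averaged over strains (log2 fold change 0.65, edgeR adjusted p = 0.0402), and the other 5 were not called in any comparison. Red cell markers, mainly haemoglobin, summed to 2152 to 9967 CPM in blood and to 36.2 to 873 CPM in brain, and 4 of 4 tested (Hbb-bt, Hbb-bs, Hba-a2 and Hba-a1) were called lower in WT brain than in WT blood, by edgeR log2 fold changes of -4.06 to -3.74. B cell markers, with Ms4a1 at 0, summed to 40.8 to 97.7 CPM in WT brain, 108 to 419 CPM in WT blood, 53.3 to 574 CPM in APP-PS1 brain and 146 to 302 CPM in APP-PS1 blood. Igkc, the immunoglobulin kappa constant gene and the 1 B cell marker tested, was called lower in WT brain than in WT blood (log2 fold change -2.12, edgeR adjusted p = 0.0307). Its value in APP-PS1 mice was 3.44 (edgeR adjusted p = 0.0759), and it was the gene called for the difference between the strains (5.56, edgeR adjusted p = 0.0104). Igkc averaged 176 ± 214 CPM (SD, n = 4) in APP-PS1 brain, and APP-PS1 blood held 2 counts of it. The other B cell markers with a count went the other way in APP-PS1 mice. Brain against blood, Cd79a averaged 0 against 32.9 CPM, Cd79b 4.89 against 45 CPM and Ighm 73.2 against 116 CPM. The part of these cell markers in the values of the Ly6 genes and Thy1 was not tested. Microglia markers, with P2ry12, Tmem119, C1qa, Trem2 and Sall1 at 0, reached at most 195 CPM in sum, and oligodendrocyte and astrocyte markers, with Mog, Mobp, Gfap and Aqp4 at 0, at most 188 CPM. Replicate numbers follow the order of the sample records, so equal numbers in brain and blood do not mark a pair. By median correlation to the other libraries, APP-PS1 brain replicate 1 (0.637) and APP-PS1 blood replicate 1 (0.673) stood lowest. They are called below the libraries that stood apart, although APP-PS1 blood replicates 2 and 3 were close to the second, at 0.709 and 0.699. Some of the results that use the libraries that stood apart are also given without them. Genes were tested with edgeR's quasi-likelihood test on 2366 genes that passed a filter near 117 CPM in 3 libraries, with Benjamini-Hochberg adjustment over all of them, and calls were made where the adjusted p was below 0.05. Ly6a, Ly6c2, Ly6e and Thy1 passed this filter. Ly6c1 did not, and was compared by exact two-sided permutation tests of its CPM.

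Together the 5 genes made up 0.205% to 0.385% of all counts in a library. Levels of different genes were set beside each other per length, on the assumption that counts grow with transcript length. That assumption was not tested, and the order of genes per kilobase depends on it. On the median library, CPM per kilobase of all annotated exons was 327.5 for Thy1, 249.9 for Ly6e, 230.9 for Ly6c2, 162.5 for Ly6a and 13.9 for Ly6c1. Per kilobase of the principal coding transcript, a length chosen after seeing the data, the order began with Ly6c2 at 769.6, followed by Thy1 at 565.3, Ly6e at 414.6, Ly6a at 205 and Ly6c1 at 27.6. The ranks of Thy1, Ly6e and Ly6c2 thus depended on the length used, and their ranges over libraries overlapped on both scales. By these medians, Ly6a and, last, Ly6c1 stood below the other 3 on both. By group means per kilobase of all annotated exons, Ly6a stood above Ly6c2 in WT brain (247.6 against 216) and APP-PS1 brain (206.5 against 203.6). In blood it stood below Ly6c2, at 171.8 against 340.1 in WT and 134.4 against 299.4 in APP-PS1. In CPM not divided by length, Ly6a averaged below Ly6c2 in every group. Per kilobase of the principal coding transcript, its highest library, at 539.8, lay below the lowest library of Ly6c2, at 572. The order of Ly6a and Ly6c2 in brain thus depended on the length used.

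**Figure D1:**
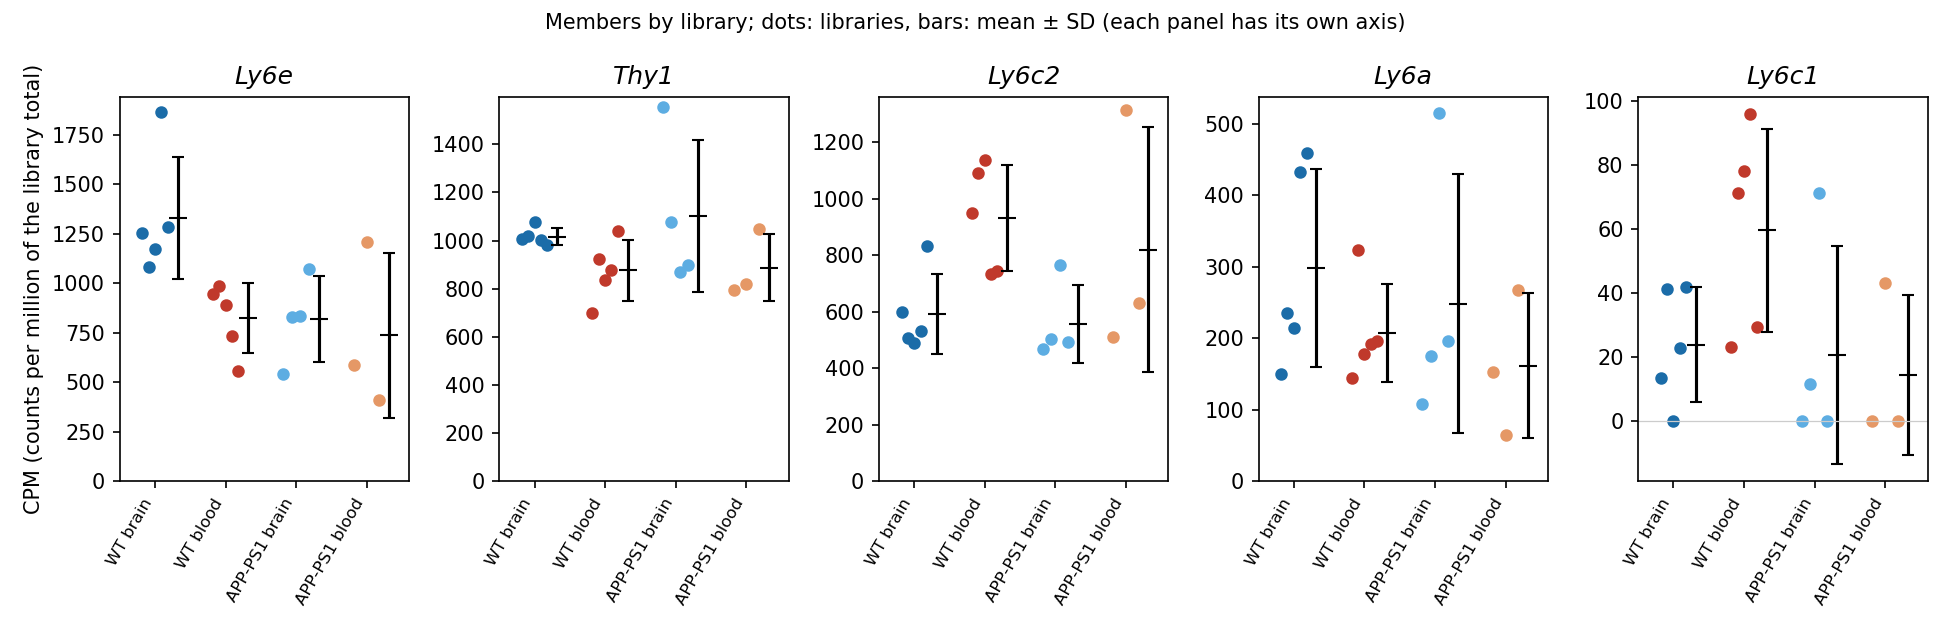
Level of each gene in every library, in CPM of the library total (vertical axes, which differ between panels and are linear), in the 4 groups; dots are libraries and bars the mean ± SD (WT brain n = 5, WT blood n = 5, APP-PS1 brain n = 4, APP-PS1 blood n = 3). The 5 WT brain libraries of Ly6e, from 1083 to 1866 CPM, lie above all 5 WT blood libraries and all 4 APP-PS1 brain libraries.

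Ly6c2, which encodes the main Ly6C antigen counted here, averaged less in brain than in blood CD8+ T cells of both strains, without passing the test. In WT brain its level was 599, 506, 489, 531 and 835 CPM in replicates 1 to 5. In WT blood it was 950, 1091, 1137, 735 and 746 CPM. All but 1 of the WT brain libraries lay below the lowest blood library, and replicate 5, at 835 CPM, lay within the blood range. Brain averaged 592 ± 142 CPM (SD, n = 5), whereas blood averaged 932 ± 188 CPM (SD, n = 5). The fitted log2 fold change was -0.72 (SE 0.26, 95% interval -1.23 to -0.20), with an unadjusted p of 0.00715 and an adjusted p of 0.292 by edgeR's quasi-likelihood test. Ly6c2 ranked 58 by p among the 2366 genes. With every library thinned to 27646 counts, the WT value was -0.24 (edgeR adjusted p = 0.993).

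In APP-PS1 mice, Ly6c2 stood at 470, 504, 764 and 493.3 CPM in the brain libraries and at 512, 1316 and 633 CPM in the blood libraries. Replicate 3 of the brain lay within the blood range and the other 3 brain libraries lay below it, while blood replicate 2 stood far above the other 2 blood libraries. The log2 fold change was -0.61 (SE 0.33, edgeR adjusted p = 0.532), and it was 0.01 without blood replicate 2. Here, as in WT, lower Ly6c2 RNA in a bulk sample does not tell fewer Ly6c2-expressing cells from less RNA per cell. Averaged over the strains, the log2 fold change of Ly6c2 between brain and blood was -0.66 (SE 0.21, 95% interval -1.08 to -0.24), with an unadjusted p of 0.00252 and an edgeR adjusted p of 0.0765. It was the member closest to the threshold in any comparison. Without APP-PS1 blood replicate 1 the value was -0.81 and passed (adjusted p = 0.0311), without APP-PS1 brain replicate 3 it was -0.76 and passed (adjusted p = 0.0488), and without both libraries that stood apart it was -0.77 and passed (adjusted p = 0.0464). Without APP-PS1 blood replicate 2 it was -0.37 (adjusted p = 0.537), and with thinned libraries it was -0.34 (adjusted p = 0.608). DESeq2 gave an adjusted p of 0.0615 and limma voom 0.147.

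Monocytes also express Ly6c2. Of the 9 monocyte and neutrophil markers found in the table, 4 had a count and Cd14, Fcgr1, S100a8, S100a9 and Retnlg had none. Their sum, mostly Ccr2, which memory T cells also express, was 19.6 to 365 CPM in WT brain, 145 to 388 CPM in WT blood, 71.1 to 266 CPM in APP-PS1 brain and 24.3 to 108 CPM in APP-PS1 blood. Lyz2 had 0 counts in WT brain, 11 in WT blood, 2 in APP-PS1 brain and 0 in APP-PS1 blood. In the same order, Ms4a6c had 19, 5, 3 and 5 counts. The part of such cells in the Ly6c2 values was not tested.

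Ly6c1, the near-identical neighbour, was rare in all groups. WT brain libraries held 1, 7, 0, 3 and 4 counts of it, and WT blood libraries 5, 9, 7, 6 and 3. APP-PS1 brain libraries held 0, 1, 4 and 0 counts, and APP-PS1 blood libraries 0, 2 and 0. Detection therefore ranged from every WT blood library to 1 of 3 APP-PS1 blood libraries. WT brain averaged 23.9 ± 18 CPM (SD, n = 5) of Ly6c1, whereas WT blood averaged 59.6 ± 31.7 CPM (SD, n = 5), a difference of -35.7 CPM (exact two-sided permutation test, p = 0.0794, adjusted over 4 comparisons 0.214). APP-PS1 blood, at 14.4 ± 24.9 CPM (SD, n = 3), differed from WT blood by -45.2 CPM (exact permutation p = 0.107, adjusted 0.214). The remaining differences were 6.32 CPM between APP-PS1 brain and blood (exact permutation p = 0.914) and -3.16 CPM between APP-PS1 and WT brain (exact permutation p = 0.905). The level of Ly6c1 in APP-PS1 blood rests on 2 counts, with an exact 95% Poisson interval of 1.92 to 57.1 CPM. Group sizes also limit these tests, as the smallest unadjusted p they can give is 0.0571 for APP-PS1 brain against blood, 0.0357 for blood between strains, 0.0159 for brain between strains and 0.00794 for WT brain against blood.

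As a share of the counts of both Ly6c genes, Ly6c1 made up 4.36% over all libraries, with an exact 95% binomial interval of 3.28% to 5.68% that covers counting error only. By group the share was 4.69% (2.65% to 7.61%) in WT brain, 5.03% (3.42% to 7.11%) in WT blood, 2.99% (0.979% to 6.85%) in APP-PS1 brain and 1.83% (0.223% to 6.47%) in APP-PS1 blood. All 4 intervals overlapped. Summing both genes as 1 feature gave a log2 fold change of -0.75 between WT brain and blood (edgeR adjusted p = 0.258), close to that of Ly6c2 alone. Brain endothelium expresses Ly6c1 and Ly6a strongly, and 9 of its 12 markers, among them Cldn5, Flt1 and Cdh5, had no count in any library. Of the other 3, Abcb1a, a drug efflux pump that T cells also express, had 73 counts and Pecam1 had 5.

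Ly6e was the member whose WT libraries separated fully by tissue. WT brain libraries held 1252, 1083, 1173, 1866 and 1283 CPM, and WT blood libraries 946, 989, 892, 735 and 560 CPM. All 5 brain libraries lay above the highest blood library. The same held, in either direction, for 2.62% of the 2366 tested genes, and for 1 of the 4 tested members. Brain averaged 1332 ± 309 CPM (SD, n = 5), and blood averaged 824 ± 176 CPM (SD, n = 5). The log2 fold change was 0.62 (SE 0.25, 95% interval 0.11 to 1.12), with an unadjusted p of 0.0169 and an edgeR adjusted p of 0.405, so Ly6e did not pass the test.

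In APP-PS1 mice the brain libraries held 543, 831, 836 and 1073 CPM of Ly6e and the blood libraries 589, 1209 and 414 CPM. These groups overlapped, as 1 blood library exceeded every brain library. For 0 of the 4 tested members did the APP-PS1 tissues separate fully, against 9.04% of the tested genes. The log2 fold change was 0.15 (SE 0.33, 95% interval -0.50 to 0.81, edgeR adjusted p = 0.924). It rested on single libraries, as it was 0.83 without APP-PS1 blood replicate 2 (unadjusted p = 0.0345, edgeR adjusted p = 0.475), and with replicate 3 of that group left out instead it was -0.10 (adjusted p = 0.960). In the female libraries alone, with 1 library in each APP-PS1 group, it was 1.47 (unadjusted p = 0.0161, edgeR adjusted p = 0.502). The difference between the strains in this brain to blood change was itself tested and was -0.46 on the log2 scale (SE 0.41, 95% interval -1.29 to 0.36, unadjusted p = 0.266, edgeR adjusted p = 0.999), so a strain difference was not established. In the female libraries alone this difference was 0.87, of the opposite sign.

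Between strains, all 4 APP-PS1 brain libraries lay below the lowest WT brain library for Ly6e, at a mean of 821 ± 217 CPM (SD, n = 4). Groups that do not overlap made up 1.56% of the tested genes in this comparison, and Ly6e was 1 of the 4 tested members. The log2 fold change was -0.69 (SE 0.27, 95% interval -1.24 to -0.15), with an unadjusted p of 0.0140, which ranked 24 among 2366 genes, and an edgeR adjusted p of 0.999. With sex as a term it was -0.71 (unadjusted p = 0.0600), and without both libraries that stood apart it was -0.52 (unadjusted p = 0.0683). In the female libraries alone, where APP-PS1 brain is 1 library, the value was -0.27. Sex and strain largely coincide in these samples, and in blood the APP-PS1 to WT difference of Ly6e was -0.23 (edgeR adjusted p = 0.883). In blood the strains separated fully for 0 of the 4 tested members, against 6.93% of the tested genes. In order of level, the group means of Ly6e ran from WT brain to WT blood, APP-PS1 brain and APP-PS1 blood (737 ± 418 CPM, SD, n = 3), and the last 3 differed by less than their SD.

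Ly6a, which encodes Sca-1, varied more between libraries of a group than between groups. WT brain libraries held 150, 235, 215, 433 and 459 CPM of it, and WT blood libraries 144, 324, 178, 192 and 196 CPM. APP-PS1 brain libraries held 109, 176, 516 and 196 CPM, and APP-PS1 blood libraries 154, 64.7 and 268 CPM. In each group the highest library held more than 2 times the lowest, and all pairs of groups overlapped. In order of level, the means were 298 ± 139 CPM (SD, n = 5) in WT brain, 249 ± 182 CPM (SD, n = 4) in APP-PS1 brain, 207 ± 68.6 CPM (SD, n = 5) in WT blood and 162 ± 102 CPM (SD, n = 3) in APP-PS1 blood. Neighbours in this order differed by less than the SD of either group. The log2 fold changes between brain and blood were 0.48 in WT (SE 0.36, edgeR adjusted p = 0.821) and 0.65 in APP-PS1 (SE 0.53, edgeR adjusted p = 0.741). Averaged over strains the value was 0.56 (95% interval -0.08 to 1.20, edgeR adjusted p = 0.459). Between strains it was -0.30 in brain (edgeR adjusted p = 0.999) and -0.47 in blood (edgeR adjusted p = 0.847).

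Thy1, the pan-T cell antigen, was the most even of the members. WT brain libraries held 1007, 1018, 1075, 1002 and 981 CPM of it, and WT blood libraries 699, 925, 836, 879 and 1041 CPM. APP-PS1 brain libraries held 1555, 1077, 871 and 901 CPM, and APP-PS1 blood libraries 794, 820 and 1046 CPM. The 5 WT brain values thus fell between 981 and 1075 CPM, while APP-PS1 brain replicate 1, a library that stood apart and the shallowest at 27646 counts, was the highest of all at 1555 CPM. The means were 1017 ± 35.4 CPM (SD, n = 5) in WT brain, 876 ± 125 CPM (SD, n = 5) in WT blood, 1101 ± 316 CPM (SD, n = 4) in APP-PS1 brain and 887 ± 139 CPM (SD, n = 3) in APP-PS1 blood. The log2 fold changes were 0.15 between brain and blood in WT (95% interval -0.31 to 0.60, edgeR adjusted p = 0.954) and 0.25 in APP-PS1 (95% interval -0.33 to 0.83, edgeR adjusted p = 0.838). Between strains they were 0.03 in brain (95% interval -0.46 to 0.52) and -0.08 in blood (95% interval -0.63 to 0.48). Neurons carry Thy1 too, and of 10 neuron markers 6 had a count, never more than 3 counts in sum in a group, with Camk2a, Stmn2, Gad1 and Nefl at 0.

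The spread of each member was set against counting error, as a chi-square statistic per degree of freedom within groups that is 1 where libraries differ by counting error alone. It was 6.33 for Ly6e, 4.97 for Ly6a, 4.05 for Ly6c2, 2.21 for Ly6c1 and 1.88 for Thy1, over 13 degrees of freedom each. The median of the 2366 tested genes was 2.72 and their quartiles were 1.99 and 3.75. Ly6e, Ly6a and Ly6c2 thus lay above the upper quartile and Thy1 below the lower one. This statistic grows with the count of a gene, and Thy1, with 1442 counts in all, had about as many as Ly6e, with 1582. In WT brain the statistic of Thy1 was 0.079, so its 5 libraries were closer to each other than counting error alone gives on average.

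**Figure D2:**
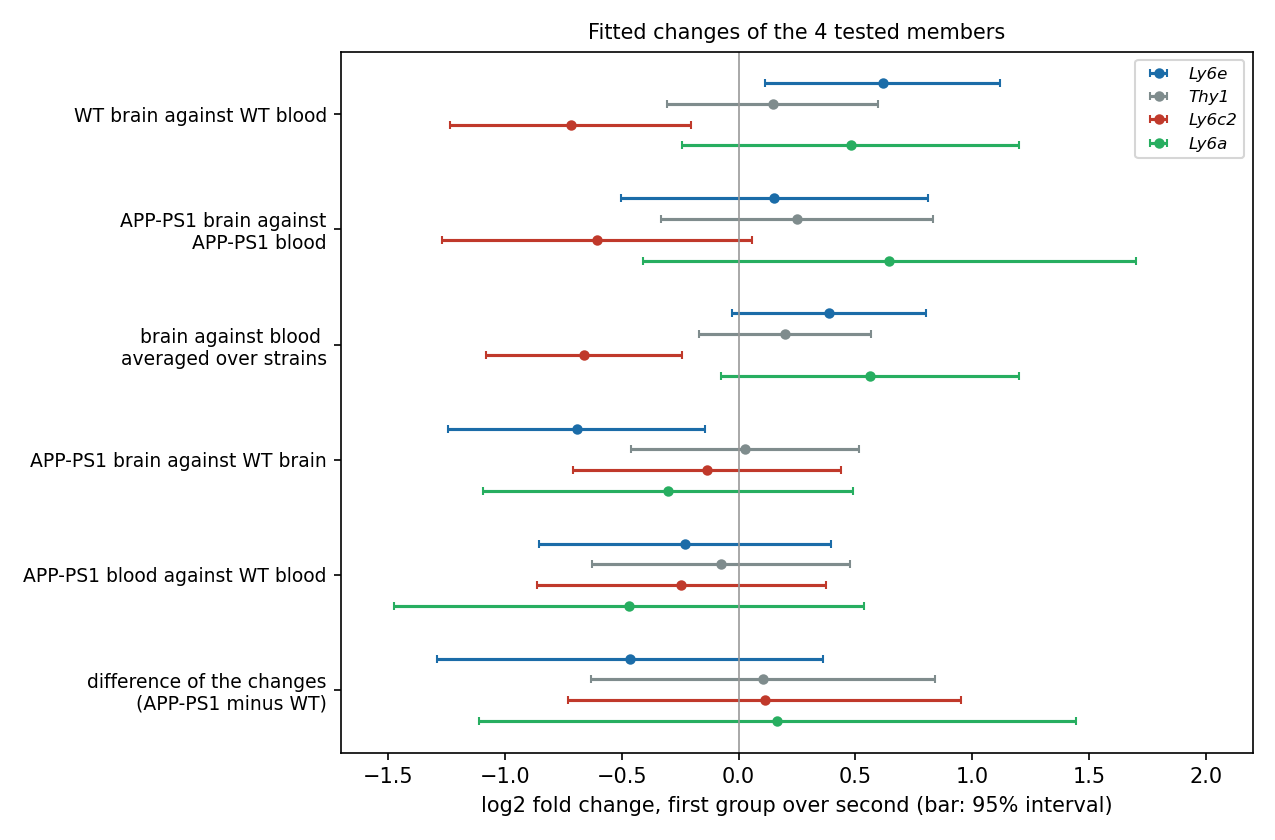
Fitted log2 fold changes (horizontal axis) of the 4 members that passed the expression filter in 6 comparisons (vertical axis); points are edgeR estimates over 17 libraries and bars are 95% intervals, unadjusted. The interval excludes 0 for Ly6e and Ly6c2 in WT brain against blood, for Ly6c2 averaged over strains and for Ly6e in APP-PS1 brain against WT brain, and no member passed the adjusted threshold.

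No member was called in any comparison by edgeR's quasi-likelihood test. Of the 4 tested members, 0 were called between WT brain and blood, where 0.761% of all genes were, and 0 between APP-PS1 brain and blood, where 0.549% were. Averaged over strains 0 members were called against 2.62% of all genes. Between the strains 0 were called in brain, against 0% of all genes, and 0 in blood, against 0.0423%. In the brain comparison DESeq2 and limma voom also called 0 genes, and 98 genes had an unadjusted p under 0.05 by edgeR. For the difference of the tissue changes between strains the count was 0 as well, against 0.0423%. DESeq2 and limma voom called 0 members in each of the 6 comparisons as well. At an unadjusted p under 0.05 by edgeR, Ly6c2 and Ly6e met the mark between WT brain and blood (7.27% of all genes), Ly6c2 averaged over strains (13.4%) and Ly6e between APP-PS1 and WT brain (4.14%). The median log2 fold change of the 4 members was 0.31 in WT brain against blood and 0.20 in APP-PS1, beside 0.02 and 0.03 over all tested genes, and it joins Ly6c2 below 0 with the other 3 above. The brain comparisons of the strains share their brain libraries with the tissue comparisons, and the blood comparisons their blood libraries, so these values are not independent of each other.

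Members did not move together from library to library. Across the 17 libraries, Pearson's r of log2 CPM, given as a description over libraries that differ in tissue, strain and depth, was 0.23 between Ly6a and Ly6e, 0.21 between Ly6c2 and Ly6e and -0.03 between Ly6a and Ly6c2. Thy1 and Ly6c2 had the lowest value, -0.39. The ratio of Ly6e to Ly6c2 counts was chosen after their values were seen and is given with no test. This ratio cancels the library total but not the difference in length between the genes. It was 1.54 to 3.51 in WT brain, with a median of 2.14, and 0.750 to 1.00 in WT blood, with a median of 0.906. In APP-PS1 mice it was 1.09 to 2.17 in brain and 0.654 to 1.15 in blood. The WT tissues did not overlap in this ratio. In APP-PS1 mice only brain replicate 3, at 1.09, fell below the highest blood library, at 1.15. The ratio joins members already seen to change in opposite directions between WT tissues (Ly6e 0.62, Ly6c2 -0.72). How often the ratios of other gene pairs separate by tissue was not counted.

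**Figure D3:**
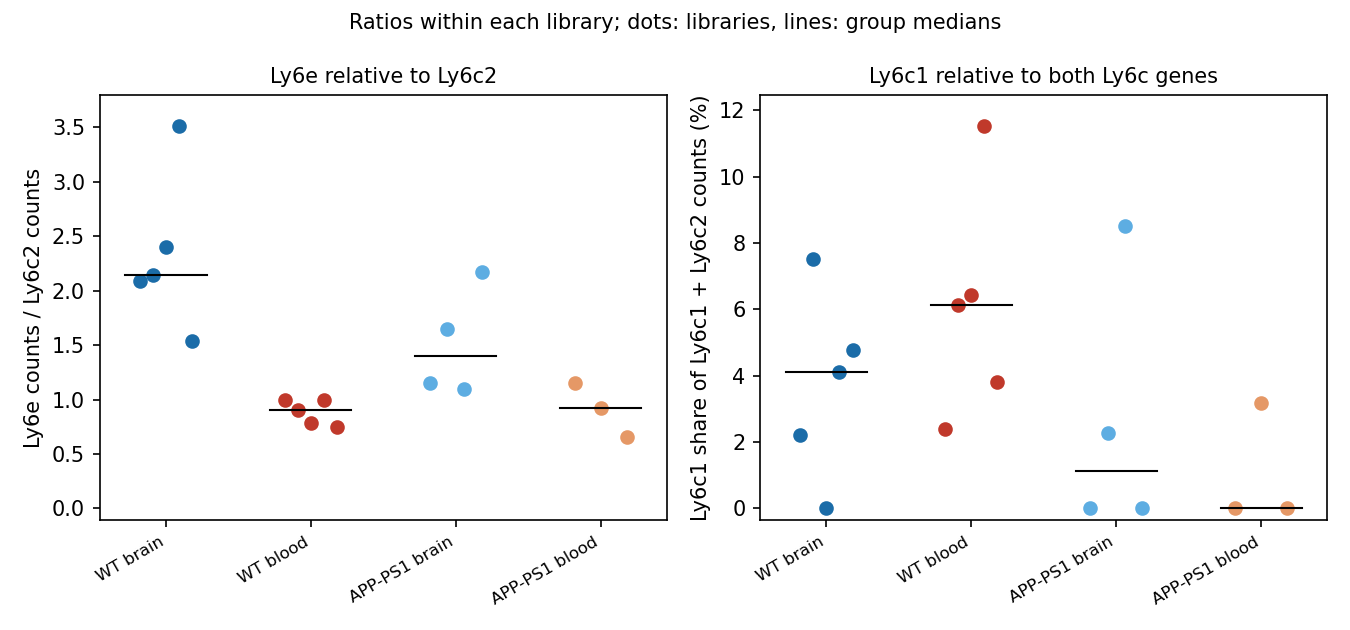
Left, ratio of Ly6e to Ly6c2 counts within each library; right, Ly6c1 as a percentage of the counts of both Ly6c genes; dots are libraries in the 4 groups and lines are group medians. The ratio was 1.54 to 3.51 in WT brain libraries, while no WT blood library was above 1.00. Counts were not divided by gene length, so the ratio does not rank these genes by level.

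For each tested member, the 3 genes most alike were taken by Pearson's r of log2 CPM over the 17 libraries, again as a description. For Ly6c2 they were Gzmm, which encodes granzyme M (0.79), Dynlt1b (0.76) and Jun, a subunit of the AP-1 transcription factor (0.74). Laptm4a (0.80), Cdk13 (0.79) and Rora, a nuclear receptor (0.77), were most like Ly6e. Usp25 (0.80), Ythdf2 (0.75) and Cnot4 (0.72) were most like Ly6a, and Tcof1 (0.76), Cyfip2 (0.75) and Spin1 (0.73) were most like Thy1. These are the highest values among all tested genes, whose 95th percentile was 0.50 for Ly6a, 0.49 for Ly6c2, 0.56 for Ly6e and 0.47 for Thy1.

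Other genes of the Ly6 and urokinase receptor family were nearly silent. Of 33 listed relatives found in the table, 11 had a count and none passed the filter. Lynx1, Lypd6b and Cd59a led with 6 counts each, and the whole list summed to 0 to 54.4 CPM in a library. Within the same region of chromosome 15, 15 listed relatives spread over 884.6 kb held 19 counts in all, against 3149 counts for the 4 Ly6 members.

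The GPI anchor and its other cargo were examined next. Of 12 other GPI-anchored lymphocyte proteins in the table, Cd52, Cd48, Bst2 and Cd160 were tested and 0 were called in each comparison, at the background shares above. Cd52, a short glycopeptide of lymphocytes, stood at a mean of 2186 ± 461 CPM (SD, n = 5) in WT brain, beside 1658 ± 214 CPM (SD, n = 5) in WT blood, a log2 fold change of 0.33 (edgeR adjusted p = 0.776). Cd48, an adhesion receptor, averaged 153 ± 35.7 CPM (SD, n = 5) and 323 ± 122 CPM (SD, n = 5), with a log2 fold change of -1.11 (unadjusted p = 0.00134, edgeR adjusted p = 0.106). Among the APP-PS1 libraries, Cd48 in brain averaged 282 ± 58.4 CPM (SD, n = 4), beside 294 ± 82.8 CPM (SD, n = 3) for blood, and the fitted log2 value was -0.12 (edgeR adjusted p = 0.95). The difference between the strains was 0.99 (unadjusted p = 0.0715, edgeR adjusted p = 0.945). Of 29 genes of GPI anchor synthesis and remodelling, 28 had a count, 3 were tested and 0 were called. Dpm3, a subunit of the enzyme that supplies mannose for the anchor, had a log2 fold change of 0.37 between WT brain and blood (edgeR adjusted p = 0.862), and Pigp, a subunit of the enzyme of the first step, 0.52 (edgeR adjusted p = 0.883).

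Since Ly6a and Ly6e are known as interferon-inducible, genes of the type I interferon response were set beside them. Of 15 tested genes, 1 was called between WT brain and blood (0.761% of all tested genes) and 1 between APP-PS1 brain and blood (0.549%), both times Isg20, an exonuclease, which was higher in brain. Averaged over strains, where 2.62% of all tested genes were called, 6 of 15 were higher in brain, namely Isg20 (log2 fold change 2.91, edgeR adjusted p = 3.88e-06), Ifit1 (2.87), Irf9 (2.14), Isg15 (1.83), Ifit3 (1.79) and Ifi27l2a (1.03), and 0 were called lower. The summed list stood at 3219 to 3753 CPM in WT brain and 1438 to 2206 CPM in WT blood, and at 3442 to 4160 CPM in APP-PS1 brain and 1435 to 1639 CPM in APP-PS1 blood. In both strains the tissues did not overlap in this sum, as they did not for 2.62% of single tested genes in WT and 9.04% in APP-PS1. The list's median log2 fold change between brain and blood was 0.72 in WT and 1.72 in APP-PS1. Ly6e, at 0.62 and 0.15, and Ly6a, at 0.48 and 0.65, lay below both medians. Whether Ly6a and Ly6e follow the interferon genes was not tested.

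**Figure D4:**
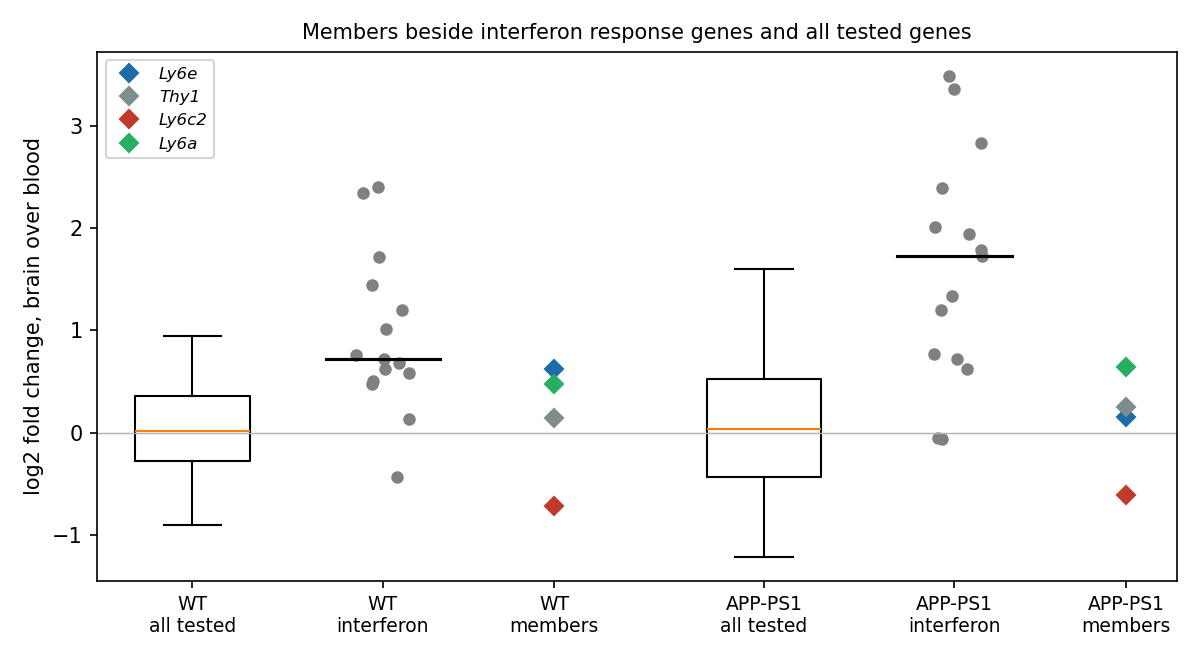
Log2 fold change of brain over blood (vertical axis) in WT and in APP-PS1 mice for all 2366 tested genes (box: quartiles and median, whiskers: 5th and 95th percentiles), for the 15 tested interferon response genes (grey dots, line at the median) and for the 4 tested members (diamonds). Ly6a and Ly6e lie below the interferon medians of 0.72 and 1.72, and Ly6c2 lies below 0 in both strains.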

How the data were processed

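RNA of CD8+ T cells was sequenced in 17 libraries of 4 groups, taken from the labels. The authors deposited whole-number counts per gene and library, without normalization. The build was GRCm38 and the tools were HTSeq 0.11.2, Bowtie2 2.2.2, DESeq2 and FastQC, with no roles stated, per the submitters' processing notes. Annotation release, strand setting, read length, molecular identifiers and the treatment of reads with several matches: not given in the sources used here. Positions, lengths and transcript sequences came from GENCODE M21, in which 48349 of 48709 gene identifiers were found. Coding sequences were aligned with Biopython 1.88.

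The tests used R 4.3.3 and edgeR 4.0.16 (TMM, filterByExpr, robust quasi-likelihood F tests, 1 mean per group over all 17 libraries, Benjamini-Hochberg over 2366 genes). The steps were tested on simulated data. Intervals are 95%. CPM use all counts of a library, and SD is the spread over libraries. Ly6c1, below the filter, was compared by exact permutation tests in SciPy 1.17.1. Over 29 pairs of same-group libraries, 0 were identical and chi-square per degree of freedom was 2.59 to 5.69, so libraries were counted singly.

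The members and gene lists were chosen with earlier results of these data known. Named were all members, called genes of each list or otherwise its 2 highest, and the 3 genes most alike to each tested member (prior count 2). Alternatives were leaving out each library, female libraries only, sex as a term, thinning to 27646 counts, RLE factors, limma voom (limma 3.58.1) with quality weights, DESeq2 1.42.0, non-robust fits, 5 CPM in 3 libraries or no filter, fits on only the compared groups, Ly6c1 and Ly6c2 summed, and totals without haemoglobin, ribosomal protein and mitochondrial genes. Leaving out both libraries that stood apart, and lengths of principal transcripts, were added after seeing the data. Figures were drawn with matplotlib 3.10.9.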

Additional observations from a re-analysis of the deposited data

Results flagged for a closer look

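Within groups of 4 or 5 libraries, the highest or lowest value of a member was compared with its neighbours by the gap to the nearest value as a share of the group's range. In 4 of 15 such groups the gap exceeded Dixon's 95% critical value. About 1 in 20 groups would pass it if values were independent and normally distributed, which was not checked for these counts. The share of groups that pass it over all tested genes was not computed, so the count of 4 has no background beside it. Ly6e stood at 1866 CPM in WT brain replicate 4, above 1083 to 1283 CPM in the other 4 libraries. Ly6a stood at 324.2 CPM in WT blood replicate 2, above 144 to 196 CPM in the others, with a gap share of 0.711 against a critical value of 0.71. APP-PS1 brain replicate 3 was the high library for both Ly6c genes, at 764.4 CPM of Ly6c2 (470 to 504 CPM in the others) and 71.1 CPM of Ly6c1, which rests on 4 counts. The same library was also the highest of its group for Ly6a, at 516 CPM, where the gap did not exceed the critical value.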

How the results depend on the processing

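No paired analysis was possible because no label gives replicate numbers or ties brain to blood libraries. Of 24 fold changes of tested members, 10 kept their sign under all alternatives run, among them Ly6c2 and Ly6e between WT brain and blood, Ly6c2 averaged over strains and Ly6e between APP-PS1 and WT brain. The other 14 took the opposite sign at least once, with adjusted p of at least 0.795, and the cause was not tested. The count of members called averaged over strains was 0, and ranged from 0 to 1 when 1 library was left out. It was 1 (Ly6c2) without both libraries that stood apart. All other counts of members called stayed at 0 in the alternatives run.

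When single libraries were left out, log2 values ranged as follows. In APP-PS1 brain against blood, Ly6c2 ran from -0.89 to 0.014 and Ly6e from -0.097 to 0.83. In APP-PS1 against WT blood, Ly6c2 ran from -0.89 to 0.042 and Thy1 from -0.28 to 0.051. In APP-PS1 against WT brain, Ly6c2 ran from -0.31 to 0.068 and Thy1 from -0.089 to 0.13. For the difference between strains, Ly6a ran from -0.37 to 0.81, Ly6c2 from -0.16 to 0.76, Ly6e from -0.69 to 0.24 and Thy1 from -0.011 to 0.29. Ly6c1 ran from -10.5 to 20.7 CPM in APP-PS1 brain against blood and from -20.0 to 3.74 CPM in APP-PS1 against WT brain.

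Among the other signs that turned, female libraries only, with 1 library in each APP-PS1 group, gave Ly6a 0.23 in APP-PS1 against WT blood, -0.35 in APP-PS1 brain against blood and -0.82 for the difference between strains. The same setting gave Ly6e 0.87 for that difference, and Thy1 0.11, -0.12, -0.13 and -0.25 in APP-PS1 against WT blood, APP-PS1 brain against blood, APP-PS1 against WT brain and the difference. Without both libraries that stood apart, Ly6c1 was 3.74 CPM in APP-PS1 against WT brain, Ly6c2 was -0.030 for the difference, and Thy1 was 0.015, -0.084 and -0.099 in blood, in brain and for the difference. Thinning gave Ly6c2 -0.21 for the difference and Thy1 -0.051 in WT brain against blood. For Thy1 in APP-PS1 against WT brain, the 5 CPM filter gave -0.070, no filter -0.072 and limma voom -0.0049.

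With the 5 CPM filter, the median of all genes shifted to -0.47 in APP-PS1 against WT blood and to 0.21 averaged over strains. Depth limits Ly6c1, with 52 counts in all, and every APP-PS1 blood value.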
